A study of Mus musculus with 6 samples.

Results

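The 10 genes described here belong to the unfolded protein response: Atf6, Hspa5, Hsp90b1, Pdia4 and Sdf2l1 of the ATF6 arm, Atf4, Ddit3 and Trib3 of the PERK arm, and Herpud1 and Dnajb9, which several arms induce. They were taken by gene symbol from a kidney table of raw read counts with 34714 rows. All 10 symbols had a row, and all 10 were among the 18927 genes that passed the filter on low counts. RNA sequencing was done on mouse kidneys collected 10 days after unilateral ureteral obstruction (UUO), in which the left ureter is tied off and the kidney behind it becomes injured and scarred. One group was 3 libraries from wild-type C57BL/6J mice, and the other was 3 libraries from mice lacking the microRNA gene Mir92b throughout the body, on a C57BL/6JGpt background. All mice were 8-week-old males, and all 6 libraries came from operated animals, so no unobstructed kidney was analysed here. The treatment label says UUO, although the treatment protocol calls the ligated kidneys nonfibrotic controls. Mir92b was deleted in every cell type, and whether the wild-type mice were littermates is not given in the sources used here. The named background differs with the group, so effects of Mir92b and of background cannot be told apart. Whether each replicate is its own animal is not stated in the labels, so the p-values may not measure the spread between animals.

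The endoplasmic reticulum (ER) folds secreted and membrane proteins, and the unfolded protein response adjusts its capacity when unfolded protein accumulates. Of its sensors, ATF6 is cut in the Golgi to release a transcription factor that raises ER chaperones, IRE1 splices Xbp1 mRNA, and PERK phosphorylates eIF2α, which slows translation in general but favours that of Atf4. ATF4 then induces Ddit3 (CHOP) and Trib3. Tubule cells and matrix-secreting fibroblasts are both known to engage this response in injured kidneys. ATF6 cleavage, Xbp1 splicing and Atf4 translation are not visible in counts per gene, which measure mRNA only.

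The 2 mature products of the deleted gene, from RefSeq (GRCm38.p6, chromosome 3, minus strand), are shown because the knockout mice are described as lacking that gene. The seed (bases 2 to 8) is in capitals.
mmu-miR-92b-3p (chr3:89227126-89227147): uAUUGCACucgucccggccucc
mmu-miR-92b-5p (chr3:89227165-89227188): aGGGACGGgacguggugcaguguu
In the longest annotated 3' UTR of each member, a site for the miR-92b-3p seed was found in 2 of the 10. Dnajb9 has an 8mer (GTGCAATA) at UTR position 877 and Atf6 a 7mer-A1 (TGCAATA) at position 5154, each shown with 8 flanking bases and the match in capitals.
Dnajb9 site: cttattatGTGCAATAttttaaat
Atf6 site: ctttataaTGCAATAcctgttct
Among 21173 genes with a 3' UTR, 2.31% held the 8mer and 13.1% at least one of the 8mer, the 7mer-m8 (GTGCAAT) and the 7mer-A1. The other 8 members held none of these letters in the UTR searched. A match is a description of sequence, not evidence of binding, and sites for miR-92b-5p were not searched.

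Promoter sequence (250 bases before to 50 after the RefSeq start site) was found for 9 members, all but Atf6. Known elements of the response were searched on both strands and are printed because they are the best-known binding letters of this response, with the fixed motif letters in capitals and 4 flanking bases. The ER stress response element (ERSE, CCAAT and CCACG with 9 bases between them), bound by ATF6 together with NF-Y, was present once in Hspa5 and 2 times in Hsp90b1, and in 0.119% of 32817 promoters.
Hspa5 ERSE (chr2:34772025-34772043, plus strand): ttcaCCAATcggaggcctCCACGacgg
Hsp90b1 ERSE (chr10:86705638-86705656, minus strand): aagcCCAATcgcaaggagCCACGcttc
Hsp90b1 ERSE (chr10:86705533-86705551, plus strand): ctcaCCAATcgtgcctcaCCACGcact
Herpud1 held the related ERSE-II (ATTGG and CCACG with 1 base between them; 0.0366% of promoters) and a CARE (TGATGNAA, the C/EBP-ATF element read by ATF4; 3.97% of promoters). Trib3 also held a CARE. No exact ERSE lay in the windows of Pdia4 and Sdf2l1 and no exact CARE in those of Atf4 and Ddit3. Near matches and sequence outside the windows were not searched, so these absences do not settle which members carry an element.
Herpud1 ERSE-II (chr8:94386377-94386387, plus strand): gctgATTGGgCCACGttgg
Herpud1 CARE (chr8:94386317-94386324, minus strand): gggcTGATGcAAcccg
Trib3 CARE (chr2:152344039-152344046, plus strand): cggcTGATGtAAacct
No exact copy of the UPRE core (TGACGTGG; 0.676% of promoters) lay in the 9 windows. The shorter CCAAT box and CCACG overlap the ERSE and were common, in 8 and 7 of the 9 windows and in 37.4% and 32.8% of all promoters.

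The libraries held 38738204 to 51932509 counts. Proximal tubule markers were present in every library (16 of 16 had counts, summing to 3307 to 20324 CPM, which are counts scaled to library size with TMM factors), as were the tubule injury markers (10 of 10, summing to 21594 to 34991 CPM). Mir92b has no row in the table, so the deletion was not checked. Wild-type replicate 1 stood apart for several members, as described below. Some of the fold changes and list medians that it moves are given with and without it. Other values below include that library and can also depend on it. Without it, for example, the log2 fold change of Sesn2 moved from 0.69 to 0.51 and that of Sec24d from 0.50 to 0.39. These are whole-kidney libraries, in which fewer cells of a type and less RNA per cell cannot be told apart.

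Per kilobase of the longest annotated transcript, the chaperones led the 10 genes. The mean level over the 6 libraries was 196 CPM per kilobase for Hsp90b1, the ER member of the HSP90 family, and 158 for Hspa5 (BiP), the ER HSP70 that also holds the sensors inactive. Herpud1 followed at 101, Atf4 at 75.9 and Pdia4 at 63.0, then Ddit3 at 27.4, Dnajb9 at 23.2, Sdf2l1 at 13.5, Atf6 at 10.9 and Trib3 at 2.21. The ranges over libraries overlapped between every pair of neighbours in this order except Pdia4 and Ddit3, and Atf6 and Trib3. Ddit3 and Dnajb9 were the least separated, with Ddit3 above Dnajb9 in 3 of 6 libraries. All values that follow are CPM, not divided by length, and are compared only within a gene.

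No member passed an adjusted p of 0.05 over all genes (edgeR quasi-likelihood test), and neither did any of the 18927 genes tested (0% called). With DESeq2 34 genes passed above and 28 below 0, and with limma-voom 1 and 2, none of them a member. By sign alone, the estimates of the arms lay on opposite sides of 0. Some members varied together over the 6 libraries (Pearson correlation 0.94 for Atf6 and Dnajb9 and 0.76 for Atf4 and Ddit3). Other pairs were loosely related or opposed (0.26 for Atf6 and Hsp90b1 and -0.81 for Atf6 and Atf4). The signs of the members are therefore not independent observations. The fold change (knockout over wild type) was above 0 for all 5 ATF6-arm members and both shared members, and below 0 for all 3 PERK-arm members. The median log2 fold change was 0.19 over the ATF6 arm and -0.36 over the PERK arm, against -0.018 over all genes tested. Leaving out single libraries moved the ATF6-arm median between 0.062 (without wild-type replicate 1) and 0.27 (without wild-type replicate 3), with 0.095 without knockout replicate 2. The PERK-arm median ran from -0.48 (without knockout replicate 3) to -0.15 (without knockout replicate 1), with -0.19 without wild-type replicate 3. Of the 10 members 70% were above 0, against 47.7% of all genes tested. This 7 to 3 split was the same under each scaling tried. It became 5 to 5 without wild-type replicate 1, where Hspa5 (-0.0071) and Herpud1 (-0.12) fell below 0. At an unadjusted p under 0.05 there was 1 member of 10, the lower Ddit3, where 7.9% of all tested genes passed (4.38% higher and 3.52% lower). Ddit3 did not pass at that unadjusted level without wild-type replicate 3, without knockout replicate 1, without replicate 3 of both groups, with limma-voom or with the length trend removed. With limma-voom the one member that passed was Sdf2l1, and without replicate 3 of both groups it was Herpud1. Groups without overlap were seen for 1 member of 10, again Ddit3, against 16.1% of all genes (8.95% higher and 7.2% lower), so neither share set the 10 genes apart from the background.

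**Figure D1:**
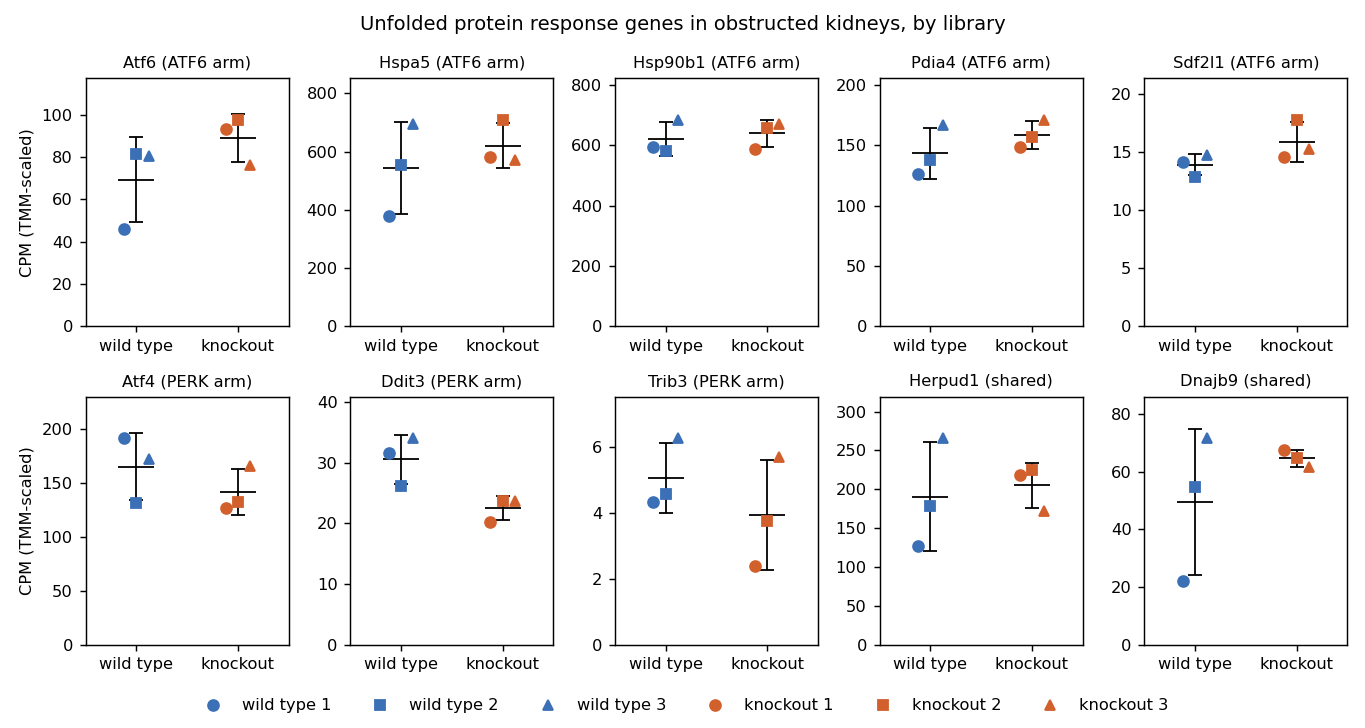
Level of each member (vertical axis, TMM-scaled CPM, from 0) in the 3 wild-type (blue) and 3 knockout (orange) libraries; marker shape is the replicate number, and the bar with whiskers is the mean ± SD (n = 3). Ddit3 is the one panel without overlap between the groups, and wild-type replicate 1 lies lowest for Atf6, Hspa5, Pdia4, Herpud1 and Dnajb9.

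Ddit3 encodes CHOP, the transcription factor through which prolonged ER stress favours cell death. It measured 31.6, 26.1 and 34.1 CPM in wild-type replicates 1, 2 and 3 and 20.3, 23.7 and 23.6 CPM in the knockout. Each knockout library lay below all 3 wild-type libraries (7.2% of all tested genes did so). The means were 30.6 ± 4.07 and 22.5 ± 1.95 CPM (SD, n = 3), a ratio of 1.36 of wild type to knockout. On the log2 scale the difference was -0.44 ± 0.15 (SE; 95% interval -0.80 to -0.087), with an edgeR adjusted p of 0.627, which ranged from 0.372 to 0.971 over the alternatives. It stayed between -0.54 and -0.35 when any single library was left out. With the transcript length trend removed it shrank to -0.22, and with limma-voom to -0.27. The opposite-strand gene Mars1 shares exon sequence with Ddit3, and reads of the pair may not be told apart where strand was not used. Mars1, which charges tRNA with methionine, was at 60.4 ± 9.90 CPM in wild-type kidneys and 61.6 ± 2.07 CPM in the knockout, with overlapping groups.

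Atf4, the transcription factor at the head of the PERK arm, measured 191, 131 and 172 CPM in wild-type kidneys and 126, 132 and 166 CPM in the knockout. The groups overlapped, with wild-type replicate 2 among the knockout values. Its log2 fold change was -0.22 ± 0.19 (95% interval -0.66 to 0.21), and -0.10 without wild-type replicate 1. Trib3, a pseudokinase that ATF4 and CHOP induce and that restrains ATF4, was the weakest member, at 4.30, 4.57 and 6.25 CPM in wild-type kidneys and 2.37, 3.74 and 5.68 CPM in the knockout. Its knockout libraries were widely spread, and replicate 3 of the knockout lay above 2 of the wild-type libraries. The log2 fold change of -0.36 ± 0.35 (95% interval -1.17 to 0.46) moved between -0.72 without knockout replicate 3 and -0.098 without knockout replicate 1. The edgeR adjusted p was 0.715 for Atf4 and 0.751 for Trib3.

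Atf6, the membrane-bound sensor, measured 46.1, 81.4 and 80.6 CPM in wild-type kidneys and 93.4, 97.7 and 76.2 CPM in the knockout. Wild-type replicate 1 was far below the rest, and knockout replicate 3 lay below the other 2 wild-type libraries. The log2 fold change was 0.36 ± 0.23, 0.14 without wild-type replicate 1 and 0.21 corrected for transcript length. Hspa5 measured 379, 553 and 695 CPM in wild-type kidneys and 581, 709 and 571 CPM in the knockout. Its lowest value was again wild-type replicate 1, while wild-type replicate 3 was nearly as high as the highest knockout library. The log2 fold change of 0.19 ± 0.25 (95% interval -0.38 to 0.76) became -0.0071 without wild-type replicate 1.

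The other 3 ATF6-arm genes were steadier. Hsp90b1 measured 595, 582 and 685 CPM in wild-type kidneys and 589, 659 and 671 CPM in the knockout (log2 fold change 0.042 ± 0.17, 95% interval -0.35 to 0.43). The groups covered nearly the same range. Pdia4, a protein disulfide isomerase, measured 126, 138 and 167 CPM in wild-type kidneys and 148, 157 and 171 CPM in the knockout (0.15 ± 0.15, from 0.062 without wild-type replicate 1 to 0.27 without wild-type replicate 3). Sdf2l1, a partner of BiP, measured 14.2, 12.9 and 14.7 CPM in wild-type kidneys and 14.6, 17.8 and 15.3 CPM in the knockout (0.19 ± 0.16). Knockout replicate 1 lay just below wild-type replicate 3, and the other knockout libraries were higher. Leaving out knockout replicate 2 put Sdf2l1 at 0.095, removing the length trend at 0.38, and limma-voom at 0.32 (limma adjusted p = 0.344). The edgeR adjusted p over the 5 ATF6-arm genes ran from 0.657 for Atf6 to 0.942 for Hsp90b1.

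Herpud1, an ER membrane protein that helps to assemble the machinery of ER-associated degradation, measured 127, 179 and 266 CPM in wild-type kidneys and 219, 224 and 171 CPM in the knockout. The wild type held both the highest and the lowest library. Its log2 fold change was 0.11 ± 0.27, and -0.12 without wild-type replicate 1. Dnajb9 (ERdj4), a BiP co-chaperone that XBP1 strongly induces, measured 22.0, 54.8 and 71.7 CPM in wild-type kidneys and 67.6, 64.9 and 61.7 CPM in the knockout. The knockout libraries lay within the range of the wild type. The log2 fold change of 0.39 ± 0.37 (95% interval -0.46 to 1.24) ran from 0.035 without wild-type replicate 1 to 0.76 without wild-type replicate 3. With all 6 libraries Dnajb9 and Atf6 ranked highest of the 10, and without wild-type replicate 1 Sdf2l1 did (0.20). The edgeR adjusted p was 0.906 for Herpud1 and 0.744 for Dnajb9.

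**Figure D2:**
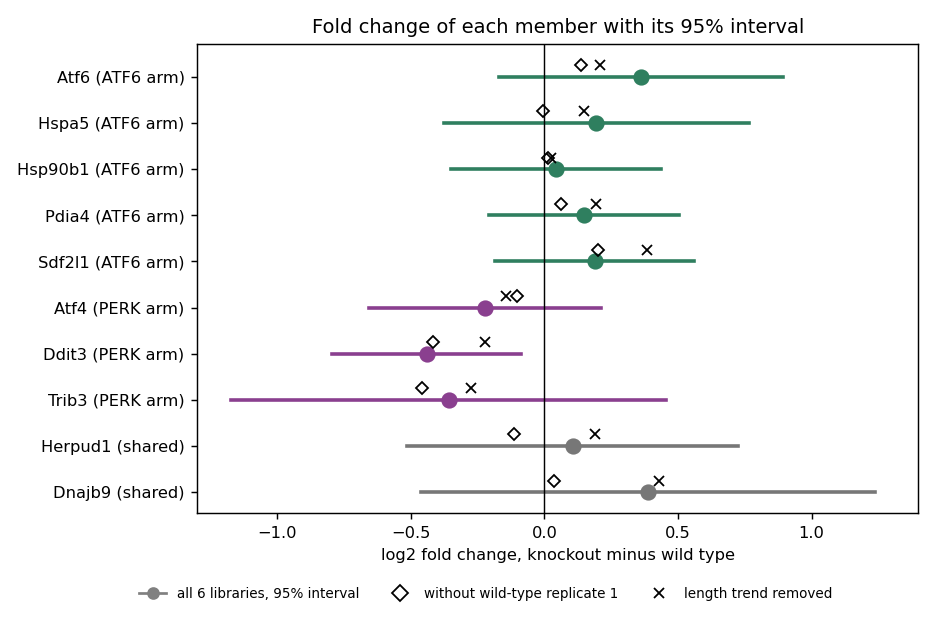
Log2 fold change (horizontal axis, knockout minus wild type) of each member: the circle and line are the edgeR estimate and its 95% interval over all 6 libraries, the diamond the value without wild-type replicate 1 and the cross the value with the transcript length trend removed. The interval excludes 0 for Ddit3 alone, and the diamonds of Hspa5 (-0.0071) and Herpud1 (-0.12) lie left of 0.

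Most of the variation in the chaperone side was within the wild type. Relative to the mean of the other 5 libraries on the log2 scale, wild-type replicate 1 was at -1.54 for Dnajb9, -0.89 for Atf6, -0.72 for Herpud1 and -0.71 for Hspa5, but at -0.31 for Pdia4 and near 0 for Hsp90b1 (-0.094) and Sdf2l1 (-0.078). In the same library Atf4 was at 0.41 and Ddit3 at 0.33, so the PERK arm was not low with them. This library was the lowest of the 6 for 5 of the 10 members, against 27.3% of all tested genes. Wild-type replicate 3 was the highest for 5 members, against 23.5% of all tested genes. Summed distal nephron markers (15 of 15 genes detected) were 2071 CPM in wild-type replicate 1 and 4011 to 5318 CPM in the other wild-type libraries. They were 1105 CPM in knockout replicate 3, where Hspa5 stood at 0.0031 and Dnajb9 at 0.25 on the same log2 measure. The part of cell makeup in the low values of wild-type replicate 1 was not tested.

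**Figure D3:**
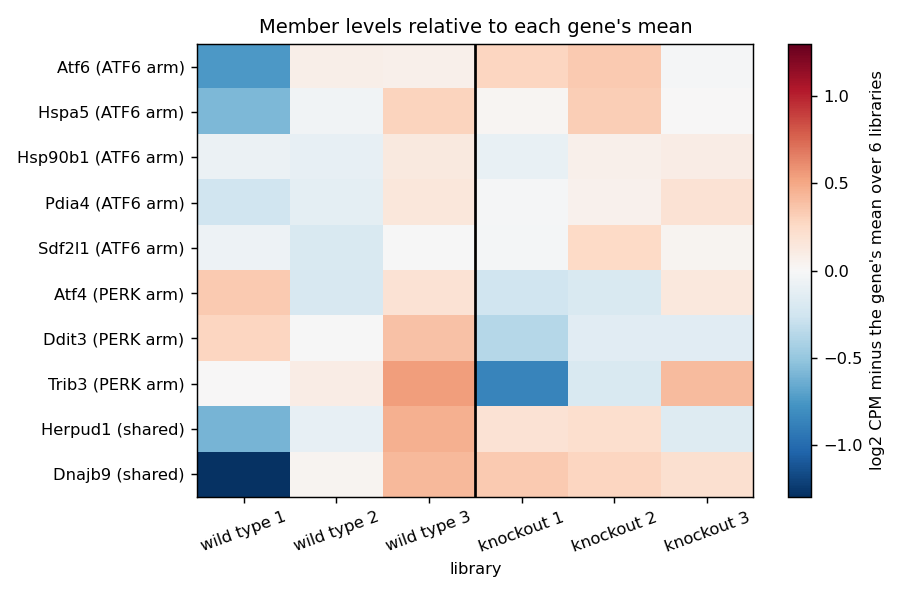
Log2 CPM of each member (rows, by arm) minus that gene's mean over the 6 libraries (columns; wild type left of the line, knockout right); red is above and blue below the mean. Wild-type replicate 1 is blue for Atf6, Hspa5, Herpud1 and most of all Dnajb9, and red for Atf4 and Ddit3.

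The mean log2 CPM of the PERK arm minus that of the ATF6 arm, in which library scaling nearly cancels, was -1.93, -2.44 and -2.23 in the wild type and -3.003, -2.87 and -2.41 in the knockout. The group means were -2.20 ± 0.26 and -2.76 ± 0.31 (SD, n = 3), and the groups overlapped slightly, since knockout replicate 3 was above wild-type replicate 2. Ddit3 counts per 100 Hspa5 counts were 8.34, 4.72 and 4.90 in the wild type and 3.49, 3.34 and 4.14 in the knockout. Every knockout library had less Ddit3 relative to Hspa5 than every wild-type library, also with wild-type replicate 1 set aside. This ratio was chosen after the values were seen and was not tested. Ddit3 counts per 100 Atf4 counts overlapped between the groups, at 16.5, 19.9 and 19.7 in the wild type and 16.0, 17.9 and 14.3 in the knockout.

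Immediate early genes, which respond to handling and injury within minutes, were lower in the same group as Ddit3. All 12 of that list were lower in the knockout by fold change, all 12 at an unadjusted edgeR p under 0.05 (3.52% of all tested genes were lower at that p), and none passed the adjusted threshold. Their sum was 1451 to 3737 CPM in wild-type kidneys and 829 to 956 CPM in the knockout, without overlap. Wild-type replicate 3, highest for Ddit3 and Trib3, also had the highest immediate early sum. The order differed among the other libraries. Wild-type replicate 2 had a higher sum than replicate 1 (1699 and 1451 CPM) but less Ddit3 (26.1 and 31.6 CPM). Knockout replicate 1 had the highest knockout sum (956 CPM) but the lowest Ddit3 (20.3 CPM) and Trib3 (2.37 CPM). The part of these genes in the Ddit3 difference was not tested. The 8 cytosolic heat shock genes listed summed to 2583 to 3916 CPM in wild-type kidneys and 2794 to 2886 CPM in the knockout.

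**Figure D4:**
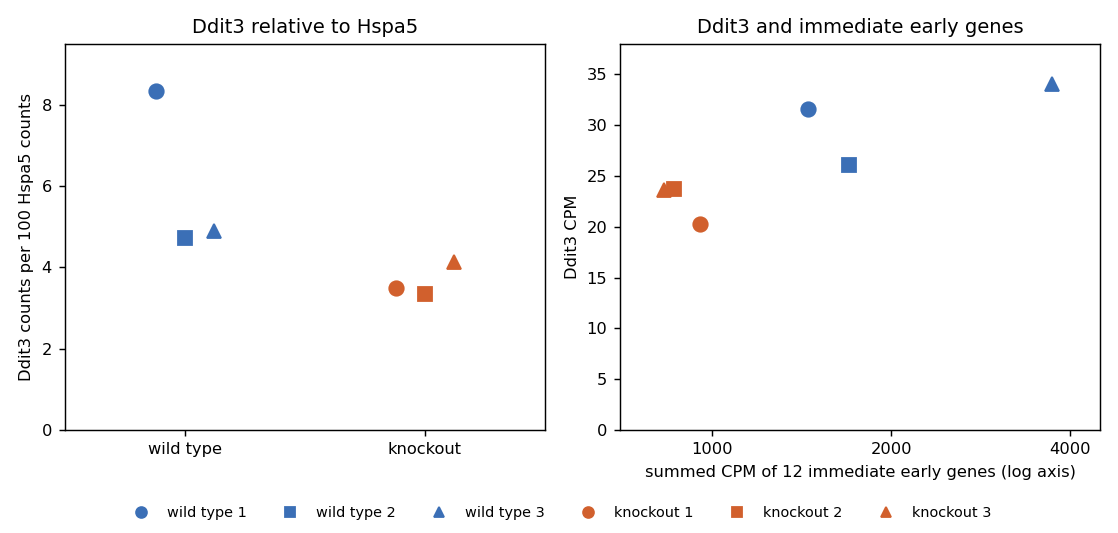
Left, Ddit3 counts per 100 Hspa5 counts in each library; right, Ddit3 level (vertical axis, CPM) against the summed CPM of 12 immediate early genes (horizontal log axis). The knockout libraries (orange) have 3.34 to 4.14 Ddit3 counts per 100 Hspa5 counts and the wild-type libraries (blue) 4.72 to 8.34, and the knockout sums of 829 to 956 CPM lie left of all wild-type sums.

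Plasma cells carry a large ER. Of 18 of their markers listed, 10 had a row and 9 were tested. All 9 had a fold change above 0, and none passed the adjusted threshold (edgeR). An unadjusted edgeR p under 0.05 was reached by 2 (22.2%, against 7.9% of all genes), and 1 of 9 was without overlap (11.1%, against 16.1% of all genes). The sum ran from 107 to 155 CPM in wild-type kidneys and from 189 to 255 CPM in the knockout, and most of that gap was Jchain, the antibody joining chain, at 5.19 ± 1.58 CPM in wild-type and 83.2 ± 27.7 CPM in knockout kidneys (SD, n = 3). The secretory marker Mzb1 was at 3.34 and 3.94 CPM, with overlapping groups. Fkbp11 and Derl3 of this list are also in the folding and degradation lists. Fibroblast markers were also above 0 for 14 of 14 genes, with sums of 2148 to 4525 CPM in wild-type kidneys and 2783 to 7954 CPM in the knockout that overlapped. Of the 14, 3 had an unadjusted edgeR p under 0.05 (21.4%, against 7.9% of all genes) and 2 were without overlap (14.3%, against 16.1%). Macrophage markers were above 0 for 10 of 12 genes, with overlapping sums of 2845 to 3639 CPM in wild-type kidneys and 3324 to 4604 CPM in the knockout. Of the 12, 5 were without overlap (41.7%, against 16.1% of all genes) and 3 had an unadjusted edgeR p under 0.05 (25%, against 7.9%). Proximal tubule markers were below 0 for 15 of 16 genes (7215 to 20324 CPM in wild-type kidneys and 3307 to 10770 CPM in the knockout) and distal nephron markers for 15 of 15 (2071 to 5318 and 1105 to 5268 CPM), with overlapping sums. Groups without overlap were seen for 0 of the 16 and 3 of the 15 (20%), against 16.1% of all genes. An unadjusted edgeR p under 0.05 was reached by 0 of the 16 and 2 of the 15 (13.3%), against 7.9% of all genes. All 5 tested skeletal muscle markers were below 0 without overlap (7.2% of all genes were) and at an unadjusted edgeR p under 0.05 (3.52% of all genes were). They summed to 4.89 to 5.32 CPM in wild-type kidneys and 0.457 to 0.644 CPM in the knockout. The part of these cell types in the members' values was not tested.

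The rest of the pathway was read from lists of 149 distinct tested genes. Apart from Xbp1, Ern1, Eif2ak3 and Atf6b, genes were named from each list for having its smallest p. Their separation between the groups therefore follows in part from that choice. None passed the adjusted threshold (edgeR). An unadjusted p under 0.05 was reached by 11 genes above and 5 below 0, 10.7% in all, near the 7.9% of all tested genes, and the groups did not overlap for 15.4%, against 16.1%. Of the 17 sensors and activating factors, 12 were above 0 with a median of 0.074 (0.025 without knockout replicate 3, 0.037 without knockout replicate 2 and 0.12 without wild-type replicate 1). Ern1, which encodes IRE1α, measured 5.58, 15.1 and 8.47 CPM in wild-type kidneys and 17.9, 21.6 and 14.1 CPM in the knockout (0.88 ± 0.36). The groups overlapped through wild-type replicate 2, and the value was 1.35 without that library. It was 0.60 without wild-type replicate 1 and also 0.60 with limma-voom. Xbp1, the mRNA that IRE1α splices, was at 242 ± 42.5 and 222 ± 9.04 CPM (-0.12 ± 0.17, and 0.032 without wild-type replicate 3). Eif2ak3, which encodes PERK, was at 0.15 ± 0.22, and -0.040 without wild-type replicate 1. Atf6b, the ATF6 paralogue, was at 0.20 ± 0.12, with all knockout libraries above all wild-type libraries. Mbtps1, the site-1 protease that cuts ATF6, was at 0.34 ± 0.14 (0.19 corrected for transcript length) and Creb3l2, an ER-bound factor cut in the same way, at 0.47 ± 0.13, both without overlap. Nfyc, a subunit of the NF-Y complex at the ERSE, was at -0.35 ± 0.14.

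Of 26 other ER chaperones and folding enzymes, 19 were above 0, with a median of 0.13, which fell to 0.036 without wild-type replicate 1 and was 0.086 without wild-type replicate 2. The disulfide isomerase Txndc5 was at 0.39 ± 0.16, the glycoprotein folding sensor Uggt1 at 0.31 ± 0.13 (0.12 with the length trend removed) and the ER reductase Dnajc10 at 0.28 ± 0.15. Txndc5 was at 0.25 without knockout replicate 3. The prolyl isomerase Fkbp2 went the other way, at -0.60 ± 0.20 (-0.29 with limma-voom). Of 22 genes of ER-associated degradation, 14 were above 0, with a median of 0.068 (0.021 without wild-type replicate 1 and 0.18 without wild-type replicate 3). The mannosidase Man1b1 and the ubiquitin-conjugating enzyme Ube2g2 were at 0.25 ± 0.12 and 0.29 ± 0.14, and the degradation factors Selenok and Aup1 at -0.46 ± 0.18 and -0.34 ± 0.15 (-0.27 and -0.20 with limma-voom). Of 30 genes of translocation and secretion, 18 were above 0, with a median of 0.064 (-0.051, 0.030 and 0.17 without wild-type replicates 1, 2 and 3, and 0.0023 without knockout replicate 3). The COPII coat subunit Sec24d was at 0.50 ± 0.15 and the cargo receptor Lman1 at 0.28 ± 0.15. Kdelr3, which returns ER residents from the Golgi, was at 0.63 ± 0.27 (0.33 without knockout replicate 3), and the signal peptidase subunit Sec11c at -0.29 ± 0.17 (-0.15 without wild-type replicate 3).

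The 41 tested ATF4 targets were split, with 15 above 0 and 26 below, a median of -0.094. Leaving out wild-type replicate 3 put the list's median at 0.085, on the other side of 0. It was -0.030 without knockout replicate 1 and -0.15 without knockout replicate 3. Ppp1r15a (GADD34), which reverses eIF2α phosphorylation, measured 38.9, 31.6 and 65.5 CPM in wild-type kidneys and 27.7, 26.7 and 30.4 CPM in the knockout (-0.68 ± 0.26, and -0.31 without wild-type replicate 3). Gdf15, a secreted stress cytokine, measured 28.0, 33.9 and 69.1 CPM in wild-type kidneys and 26.8, 7.39 and 13.8 CPM in the knockout (-1.45 ± 0.51, and -0.95 without wild-type replicate 3). Both genes were highest in wild-type replicate 3, and neither overlapped between the groups (7.2% of all tested genes were lower without overlap). Sesn2, a leucine sensor that restrains mTORC1, lay the other way, at 21.5, 32.1 and 33.7 CPM in wild-type kidneys and 47.2, 44.7 and 48.8 CPM in the knockout (0.69 ± 0.18, edgeR adjusted p = 0.627). It was above in all 3 knockout libraries, as was the amino acid transporter Slc7a5 (0.44 ± 0.19, and 0.22 without replicate 3 of both groups). Of all tested genes, 8.95% were higher without overlap. The other kinases of eIF2α, Eif2ak1, Eif2ak2 and Eif2ak4, were at 0.16 ± 0.17, -0.11 ± 0.12 and -0.030 ± 0.13, and the first was at 0.010 without wild-type replicate 1.

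Of 11 genes linked to death under ER stress, 9 were above 0, with a median of 0.14 (0.082 without wild-type replicate 1, 0.086 without knockout replicate 2 and 0.24 without wild-type replicate 2). Bcl2l11 (BIM), a pro-apoptotic gene that CHOP can induce, measured 33.8, 37.3 and 29.8 CPM in wild-type kidneys and 41.2, 47.0 and 53.1 CPM in the knockout (0.49 ± 0.15, and 0.31 without replicate 3 of both groups), without overlap and opposite in direction to Ddit3. It was named for its small p in this list, and 8.95% of all tested genes were higher without overlap. Txnip, which links ER stress to the inflammasome, was at 0.45 ± 0.18, the pro-apoptotic Bak1 at 0.35 ± 0.17 (0.22 without wild-type replicate 1), and the anti-apoptotic Bcl2 at 0.30 ± 0.14 (0.15 with the length trend removed).

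**Figure D5:**
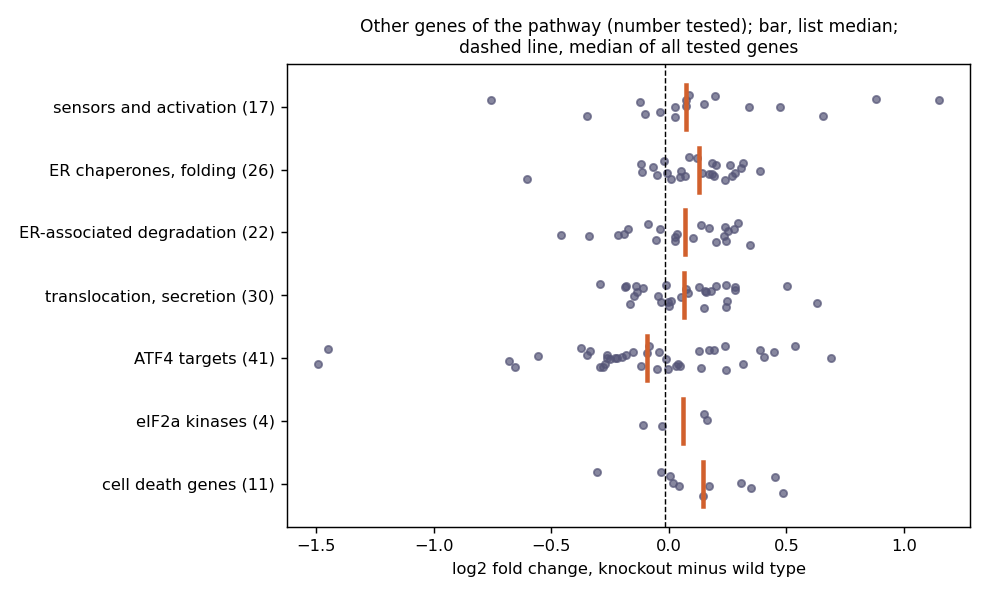
Log2 fold change (horizontal axis, knockout minus wild type) of every tested gene (points) in 7 lists of other pathway genes; the orange bar is the list median and the dashed line the median of all tested genes (-0.018). The ATF4 targets are the one list with a median left of the dashed line (-0.094), and the list medians run up to 0.14.

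By pattern over the 6 libraries, the genes most like Hspa5 among 12905 genes with a mean of at least 5 CPM were the cell cycle kinase Wee1, Cdyl2, Rnf121, Zdhhc5 and the cytosolic chaperone Hspa4. Those most like Ddit3 were Ergic2, Klhl36, Wdr75, Arl4d and Smndc1. Likeness was the Pearson correlation of log2 CPM, from 0.995 to 0.996 for the genes named with Hspa5 and from 0.971 to 0.986 for those with Ddit3. No member of the 10 was among the 5 closest genes of Hspa5 or of Ddit3. Among the members, the correlation with Hspa5 ran from -0.50 for Atf4 to 0.93 for Dnajb9 and Herpud1. That with Ddit3 ran from -0.60 for Atf6 to 0.76 for Atf4. Wee1 measured 25.3, 45.7 and 65.1 CPM in wild-type kidneys and 46.9, 62.7 and 48.2 CPM in the knockout, lowest in wild-type replicate 1 and highest in wild-type replicate 3 and knockout replicate 2, as for Hspa5. Arl4d measured 17.7, 15.1 and 21.8 CPM in wild-type kidneys and 11.2, 12.1 and 13.4 CPM in the knockout, without overlap, as for Ddit3. Wee1 and Arl4d were picked for their likeness over these same 6 libraries, so the shared patterns are not separate observations.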

How the data were processed

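The deposited values are raw counts of reads, with a row for each gene symbol and a column for each library. Builds GRCm38 and mm10 are listed in the submitters' processing notes. Which aligner, counter and strand setting were used is not given in the sources used here. Knockout columns give the parts of the labels' names in another order and were matched by those parts and the number.

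Genes were filtered with filterByExpr (18927 of 34714 rows, 99.96% of counts), scaled by TMM, and tested with edgeR 4.0.16 (quasi-likelihood F test) in R 4.3.3 (group as the only term, robust fitting), with Benjamini-Hochberg adjustment over all tested genes and a threshold of 0.05. The standard error is the log2 fold change over the root of F. Intervals are 95% and use the test's degrees of freedom. Log2 CPM used a prior count of 2, and the biological coefficient of variation came to 26.9%. Lengths and 3' UTRs came from GENCODE M21, and promoters and microRNAs from RefSeq (GRCm38.p6).

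Members, gene lists and alternatives were chosen with earlier results of these data known. Named genes were the 10 members, up to 4 genes of each pathway list with the smallest p and at least 1 CPM, 4 sensors and factors (Xbp1, Ern1, Eif2ak3, Atf6b), and the 5 genes most like Hspa5 and Ddit3. Mars1 and the genes of marker lists were named beside the result they touch. Alternatives were DESeq2 1.42.0, limma-voom (limma 3.58.1), other scalings and filters, non-robust fitting, a replicate block, leaving out libraries, and removal of the transcript length trend. On simulated counts for 18628 genes of this comparison, the pipeline found 2 of 67 changes of 1.5-fold, 25 of 67 of 2-fold and 55 of 66 of 4-fold. It also made 14 false calls. The simulated noise was drawn for each gene separately, so shifts that many genes of a library share were left out. No library was a copy of another (chi-square per degree of freedom at least 31.1).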

Additional observations from a re-analysis of the deposited data

How the results depend on the processing

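No member was called under any alternative run, and Ddit3, Atf4 and Trib3 stayed below 0 and Atf6, Hsp90b1, Pdia4, Sdf2l1 and Dnajb9 above 0 in all 17. Over all genes, DESeq2 called 34 higher and 28 lower, limma-voom 1 and 2, and no filter 1 and 1. The replicate block called 1 higher and so did the data without replicate 3 of both groups; leaving out 1 library gave 0 to 1 higher. Same-numbered libraries did not deviate together throughout (correlations -0.28, 0.18 and -0.29, against -0.20 to 0.37 between different numbers). The numbers were therefore not taken to pair samples. In replicate 2 of both groups the deviation from the group mean rose with transcript length (Spearman correlation 0.34 in wild type and 0.25 in knockout). That correlation was -0.11 to -0.080 in the other libraries. With the replicate block Ddit3 was at -0.44 and Dnajb9 at 0.54. Over single libraries left out, Hspa5 ran from -0.0071 to 0.42, Herpud1 from -0.12 to 0.43, Dnajb9 from 0.035 to 0.76, Trib3 from -0.72 to -0.098, Eif2ak3 from -0.040 to 0.35, Eif2ak4 from -0.078 to 0.040 and Xbp1 from -0.21 to 0.032. Eif2ak4 was at 0.0099 with limma-voom and Xbp1 at 0.024 without replicate 3 of both groups. The cause of these shifts was not tested. A 1.5-fold difference, larger than that of any member with all 6 libraries in edgeR, was rarely recovered in simulation (2.99%). The simulation used this depth and each gene's estimated spread, without shifts shared between genes.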
